A study of Mus musculus with 4 samples.

Results

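The genes described here are 43 genes of endothelial identity and vessel subtype, chosen by name: those of endothelial junctions and surface, of endothelial transcription and signalling, of clotting control, and of arteries, capillaries and lymphatics. Of these, 42 were measured on the array by 63 probe sets annotated with that symbol alone, among 12393 genes measured in all. No probe set carried the symbol Mmrn2. Each gene was represented by its brightest probe set, and 38 members passed a filter on dim genes, as did 8675 genes in all. Erg, Selp, Sele and Gja5 were measured but too dim to be tested.

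RNA of whole mouse lung, collected at embryonic day 18.5 (the sample titles say day 18), was hybridised to 4 arrays, 2 from Sftpc-Nmyc embryos and 2 from wild-type embryos, each a biological replicate per the labels. Sftpc-Nmyc embryos carry the cDNA of mouse Nmyc1, which encodes the growth-promoting transcription factor N-myc, fused to EGFP behind a 3.7 kb promoter and enhancer fragment of human SFTPC. That fragment is active in distal lung epithelium, so the endothelium is not the cell type in which the transgene was placed. The 4 transgenic embryos of the study came from pronuclear injection of F2 eggs (C57BL/6J and DBA/2J), so each may carry its own insertion. Which of them gave the 2 arrays, and the strain and sex of the wild-type embryos, are not stated in the labels. The comparison asks what misexpression of Nmyc in lung epithelium changes in the lung, here in its vessels.

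Endothelial cells line all vessels and are held together by adherens and tight junctions built on VE-cadherin, PECAM1 and related molecules. Their identity is set by transcription factors of the ETS and SOXF families, while flow, BMP9 and adrenomedullin act through their own receptors and factors. In late gestation the mouse lung fills with capillaries closely apposed to the distal epithelium, and 2 capillary cell types are told apart: aerocytes, marked by Car4, Ednrb and Apln, and general capillary cells. Arteries, veins and lymphatics carry further markers.

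The brightest of 3 Mycn probe sets, the targeted gene, read 455.2 and 356 in Sftpc-Nmyc lung and 34.7 and 32.1 in wild-type lung. The other Mycn probe sets did not follow it, with 25.1 and 27.2 in Sftpc-Nmyc lung against 78.7 and 63.5 in wild-type lung for one, and 61.8 and 43.8 in Sftpc-Nmyc lung against 57.3 and 18.8 in wild-type lung for the other, and which of the 3 lie in the transgene's cDNA was not tested. The deposited signals are linear intensities whose median was 65.45 to 67.2 on the Sftpc-Nmyc arrays and 69 to 70.8 on the wild-type arrays. Normalized log2 values correlated between arrays of 1 group at r = 0.968 (Sftpc-Nmyc) and 0.965 (wild type), across probe sets. Xist, the RNA of the inactive X chromosome, read 59.3 and 63.9 in Sftpc-Nmyc lung and 1707.8 and 1506.1 in wild-type lung, and Y-linked Eif2s3y read 58 and 61.7 in Sftpc-Nmyc lung and 3.1 and 0.8 in wild-type lung. Genotype and sex therefore cannot be told apart in any comparison below. The 27 Bacillus control probe sets, for which mouse RNA holds no target, reached 73.4 at most, and 5 members (the 4 untested ones and Procr) lay below it on all 4 arrays.

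Endothelial genes were lower in Sftpc-Nmyc lung. Of the 38 tested members 31 fell (81.6%) and none was higher, by limma at a Benjamini-Hochberg adjusted p under 0.05 over all genes tested, and none was higher at an unadjusted p under 0.05 either. Over all genes tested 15.7% fell and 14.7% rose. The members' median log2 fold change, Sftpc-Nmyc minus wild type, was -1.22 (2.33-fold lower), against -0.02 over all genes tested. Among the members that fell, 23 were lower by at least 2-fold. In whole lung, fewer endothelial cells and less of these RNAs per cell cannot be told apart. All log2 fold changes are differences of log2(signal + 5) after quantile normalization, a scale that understates the changes of dim genes, and errors are limma standard errors with n = 2 per group. The p-values rest on the spread between 2 arrays per group, which limma moderates with the variance of all genes tested.

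**Figure D1:**
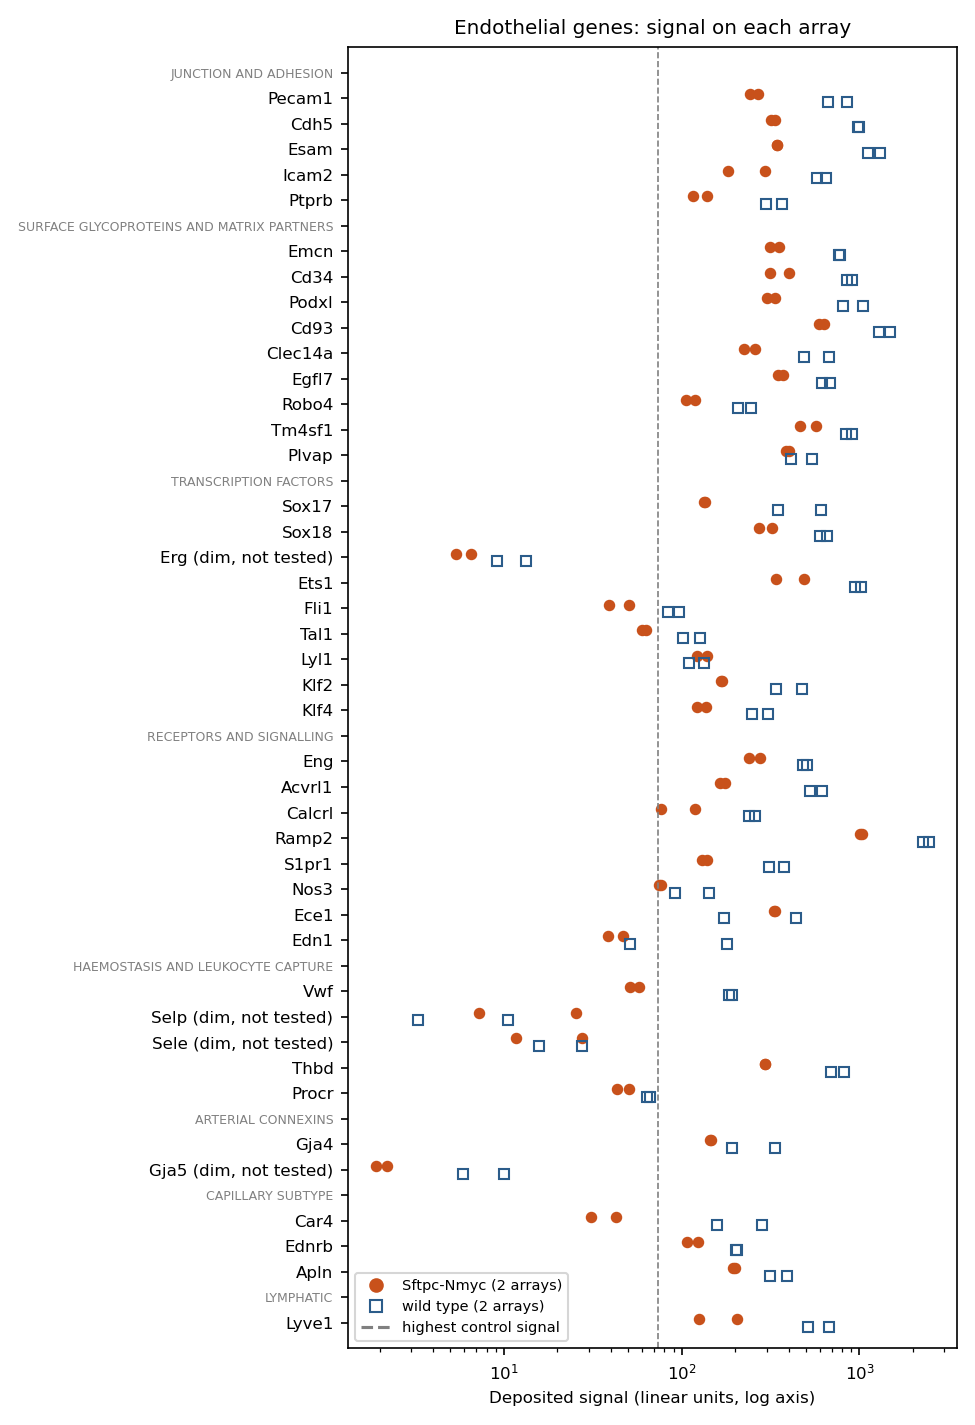
Deposited signal of each of the 42 measured members on each array (linear units on a log axis), with Sftpc-Nmyc arrays as filled circles and wild-type arrays as open squares, ordered by role. The dashed line is the highest control signal, 73.4. For most members both Sftpc-Nmyc points lie left of both wild-type points, while Lyl1, Ece1 and the dim Selp and Sele overlap. Plvap, Nos3 and Procr do not overlap either, yet were not called. With 2 arrays per group separation alone is weak, and the share of all genes with separated groups was not counted.

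The 5 junction and adhesion genes all fell, with log2 fold changes from -1.82 to -1.34. Esam, an immunoglobulin-family molecule of endothelial tight junctions, read 343.7 and 344.6 in Sftpc-Nmyc lung, against 1121.5 and 1305.9 in wild-type lung (-1.82 ± 0.13 on the log2 scale, limma adjusted p = 0.00022). Its levels were close together within each group and far apart between them. Cdh5, VE-cadherin, read 334.7 and 318.4 in Sftpc-Nmyc lung, against 993.2 and 977.9 in wild-type lung (-1.59 ± 0.13, limma adjusted p = 0.00037). Pecam1, the CD31 adhesion molecule that platelets and leukocytes also carry, read 269.1 and 243.7 in Sftpc-Nmyc lung, against 664.4 and 855.5 in wild-type lung (-1.55 ± 0.16, limma adjusted p = 0.00070). For both genes every Sftpc-Nmyc array lay below every wild-type array. Icam2, a ligand of leukocyte integrins, fell by 1.40 ± 0.22 and Ptprb, the phosphatase that acts on VE-cadherin and the receptor Tie2, fell by 1.34 ± 0.18. Each of these 5 falls was called whichever array was left out.

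Of 9 measured surface glycoproteins and their matrix partners 8 fell. Podxl, a sialomucin related to CD34 that mesothelium also makes, read 333.4 and 303.5 in Sftpc-Nmyc lung, against 803.6 and 1041.1 in wild-type lung (-1.53 ± 0.16, limma adjusted p = 0.00073). Cd93, a lectin-domain receptor, read 632.5 and 589.1 in Sftpc-Nmyc lung, against 1484.9 and 1284.7 in wild-type lung (-1.20 ± 0.13, limma adjusted p = 0.00082). Emcn, the sialomucin endomucin of capillaries and veins, read 350.5 and 314.7 in Sftpc-Nmyc lung, against 772.4 and 764.4 in wild-type lung (-1.21 ± 0.13, limma adjusted p = 0.00089). The groups did not overlap for any of these genes. Cd34 fell by 1.30 ± 0.16 and Clec14a, a relative of Cd93, fell by 1.24 ± 0.18. The log2 fold change was above -1 for Robo4, a guidance receptor of endothelium (-0.96 ± 0.17), Egfl7, a secreted matrix protein (-0.85 ± 0.13), and Tm4sf1, a membrane protein of endothelial projections (-0.80 ± 0.15). In the fit over all probe sets described below, another Egfl7 probe set was called lower (-0.80). The remaining Egfl7 probe sets, at -0.50 and -0.55, were not called (limma adjusted p = 0.19 and 0.18). The fall of Tm4sf1 ended with wild-type replicate 1 left out (limma adjusted p = 0.053) and with the mean of its probe sets (-0.54, limma adjusted p = 0.16).

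Plvap, which forms the diaphragms of fenestrae and caveolae, was the exception among the surface genes. It read 402.8 and 387.1 in Sftpc-Nmyc lung, against 538.8 and 411.4 in wild-type lung, and did not pass (-0.26 ± 0.17, limma adjusted p = 0.27). Its 95% interval ran from -0.65 to 0.13, so a fall as large as that of any junction gene lay outside it.

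Promoter sequence is shown for the 4 members with the largest moderated statistic among those with an entry in a RefSeq-based promoter table of build GRCm38.p6, as members that moved together. Entries were found for 23 of the 43 members. The 250 bases before the table's gene start were searched on both strands for CACGTG, the E-box that MYC proteins bind, AGGAAG, a core of ETS sites, and AACAAT, a SOX-type motif. Letters in capitals mark matches to any of these 3 motifs.
Emcn, chr3:137340828-137341077, plus strand: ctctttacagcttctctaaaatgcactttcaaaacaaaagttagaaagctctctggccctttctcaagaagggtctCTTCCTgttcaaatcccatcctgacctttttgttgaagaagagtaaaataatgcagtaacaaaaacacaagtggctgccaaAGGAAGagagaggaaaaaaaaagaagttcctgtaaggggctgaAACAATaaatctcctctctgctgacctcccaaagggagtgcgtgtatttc
Cd34, chr1:194938571-194938820, plus strand: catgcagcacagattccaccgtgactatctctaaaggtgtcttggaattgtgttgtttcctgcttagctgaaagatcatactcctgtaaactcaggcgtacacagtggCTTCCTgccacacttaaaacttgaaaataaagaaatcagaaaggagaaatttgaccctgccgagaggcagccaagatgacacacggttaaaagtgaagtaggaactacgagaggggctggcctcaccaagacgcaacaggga
Car4, chr11:84957504-84957753, plus strand: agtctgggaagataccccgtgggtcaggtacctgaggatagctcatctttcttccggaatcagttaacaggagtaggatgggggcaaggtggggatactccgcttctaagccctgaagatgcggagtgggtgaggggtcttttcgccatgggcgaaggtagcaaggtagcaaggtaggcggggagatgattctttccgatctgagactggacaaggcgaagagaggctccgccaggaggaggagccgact
Clec14a, chr12:58269259-58269508, minus strand: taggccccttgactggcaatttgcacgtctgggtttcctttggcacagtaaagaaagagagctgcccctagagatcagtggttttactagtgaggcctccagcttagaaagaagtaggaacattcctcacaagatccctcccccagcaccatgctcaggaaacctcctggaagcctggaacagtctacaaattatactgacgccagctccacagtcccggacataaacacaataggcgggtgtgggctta
The Emcn window held 2 matches to AGGAAG and 1 to AACAAT, the Cd34 window 1 to AGGAAG, and the windows of Car4 and Clec14a none of the 3. Over the 23 members with an entry, AGGAAG was present for 12 (52.2%), against 32.3% of 27025 genes in the table. CACGTG was present for 2 members (8.7%), against 6.86% of all genes, and AACAAT for 3 (13.0%), against 10.9%. These shares are descriptions without a test, and a match is not a binding site. Other forms of ETS, SOX and MYC sites were not searched, so a window with no match may still hold one.

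Of 8 tested transcription factors 7 fell, and their median was -1.08. Sox18, a SOXF factor of vascular and lymphatic development, read 271.6 and 320.9 in Sftpc-Nmyc lung, against 602.5 and 657.5 in wild-type lung (-1.09 ± 0.15, limma adjusted p = 0.0018). Ets1, an ETS factor of endothelium and lymphocytes, read 489.4 and 341.2 in Sftpc-Nmyc lung, against 939.7 and 1016.2 in wild-type lung (-1.28 ± 0.18, limma adjusted p = 0.0020). Sox17, the SOXF factor enriched in arteries, read 134.1 and 134.5 in Sftpc-Nmyc lung, against 349.9 and 607.9 in wild-type lung (-1.74 ± 0.24, limma adjusted p = 0.0020). For all 3 the groups did not overlap, although the wild-type arrays differed for Sox17. A second Sox17 probe set gave a close value of -1.73. The flow-responsive factors Klf2 and Klf4, the second of which epithelium also uses, fell by 1.24 ± 0.19 and fell by 1.06 ± 0.17.

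The calls of Fli1 and Tal1 were lost with single arrays left out, for Fli1 in part through a change of probe set. Fli1, another ETS factor, stood at -0.88 ± 0.23 (limma adjusted p = 0.024), but its call ended without Sftpc-Nmyc replicate 1 (-0.73, limma adjusted p = 0.10). With wild-type replicate 1 left out Fli1 was not called either (-0.35), nor with wild-type replicate 2 left out (-0.41). In both of these settings another probe set was the brighter and stood for the gene. That probe set had a log2 fold change of -0.38 on all 4 arrays. Tal1, a factor of blood and endothelial precursors, stood at -0.79 ± 0.21 (limma adjusted p = 0.023) and lost its call without any of 3 arrays: wild-type replicate 2 (limma adjusted p = 0.12), Sftpc-Nmyc replicate 1 (0.0754) or Sftpc-Nmyc replicate 2 (0.0723). With no filter on dim genes neither was called (limma adjusted p = 0.064 for Fli1 and 0.062 for Tal1), nor was Fli1 with the mean of its probe sets (0.061). Both genes read under 73.4 on both Sftpc-Nmyc arrays. Lyl1, the relative of Tal1, read 138.7 and 122.4 in Sftpc-Nmyc lung, against 110.3 and 133.5 in wild-type lung, with overlapping groups (0.11 ± 0.19, limma adjusted p = 0.69), and the sign turned without wild-type replicate 1 (-0.03). Erg, the untested ETS factor, read 5.4 and 6.5 in Sftpc-Nmyc lung and 9.1 and 13.4 in wild-type lung, all far below the control signals' highest value.

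Among 8 receptors and signalling genes 5 fell. Ramp2, which with Calcrl forms the adrenomedullin receptor, read 1012.3 and 1036 in Sftpc-Nmyc lung, against 2471 and 2273.8 in wild-type lung (-1.27 ± 0.11, limma adjusted p = 0.00041). Acvrl1, the ALK1 receptor for BMP9, read 174.5 and 163.9 in Sftpc-Nmyc lung, against 524.5 and 615 in wild-type lung (-1.73 ± 0.15, limma adjusted p = 0.00042). S1pr1, a receptor for sphingosine-1-phosphate, read 130.2 and 138.9 in Sftpc-Nmyc lung, against 378.2 and 308.2 in wild-type lung (-1.32 ± 0.17, limma adjusted p = 0.0014). Each of the 3 genes had groups that did not overlap. Calcrl fell by 1.32 ± 0.21 and Eng, endoglin, the co-receptor of ALK1, fell by 0.94 ± 0.15.

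Nos3, Edn1 and Ece1, the members of this role group that make vasoactive signals, did not pass. Nos3, endothelial nitric oxide synthase, had a difference of -0.54 ± 0.24 (limma adjusted p = 0.12), with a 95% interval of -1.08 to 0.01. Edn1, endothelin-1, read 46.9 and 38.6 in Sftpc-Nmyc lung, against 51.4 and 179.3 in wild-type lung (-1.02 ± 0.51, limma adjusted p = 0.17), so the difference rested on 1 wild-type array. Without wild-type replicate 1 it was called, at -1.95 (limma adjusted p = 0.011). Ece1, the enzyme that activates endothelin, read 329.6 and 335.8 in Sftpc-Nmyc lung, against 439.4 and 172 in wild-type lung. The wild-type arrays lay on either side of the Sftpc-Nmyc arrays, and the difference of 0.25 ± 0.36 (limma adjusted p = 0.63) turned to -0.41 without wild-type replicate 2 (limma adjusted p = 0.15) and was called higher, at 0.93, without wild-type replicate 1 (limma adjusted p = 0.024). The other Ece1 probe set read 195.1 and 188.4 in Sftpc-Nmyc lung and 261.4 and 217.2 in wild-type lung.

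Clotting and leukocyte capture genes were measured in part. Thbd, thrombomodulin, which turns thrombin to anticoagulant use, read 296.1 and 295.7 in Sftpc-Nmyc lung, against 690.1 and 816.3 in wild-type lung (-1.35 ± 0.14, limma adjusted p = 0.00075). Vwf, von Willebrand factor of endothelium and platelets, read 51.3 and 57.5 in Sftpc-Nmyc lung, against 190.9 and 185.5 in wild-type lung (-1.66 ± 0.18, limma adjusted p = 0.00076). Neither gene's groups overlapped, and the Vwf level in Sftpc-Nmyc lung lay below the control signals' highest value. Procr, the protein C receptor, read 43.4 and 50.6 in Sftpc-Nmyc lung, against 66.3 and 63.6 in wild-type lung, and did not pass (-0.35 ± 0.24, limma adjusted p = 0.29). The selectins that catch leukocytes on activated endothelium were dim: Selp read 25.5 and 7.2 in Sftpc-Nmyc lung and 10.6 and 3.3 in wild-type lung, and Sele 11.7 and 27.5 in Sftpc-Nmyc lung and 15.8 and 27.6 in wild-type lung.

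**Figure D2:**
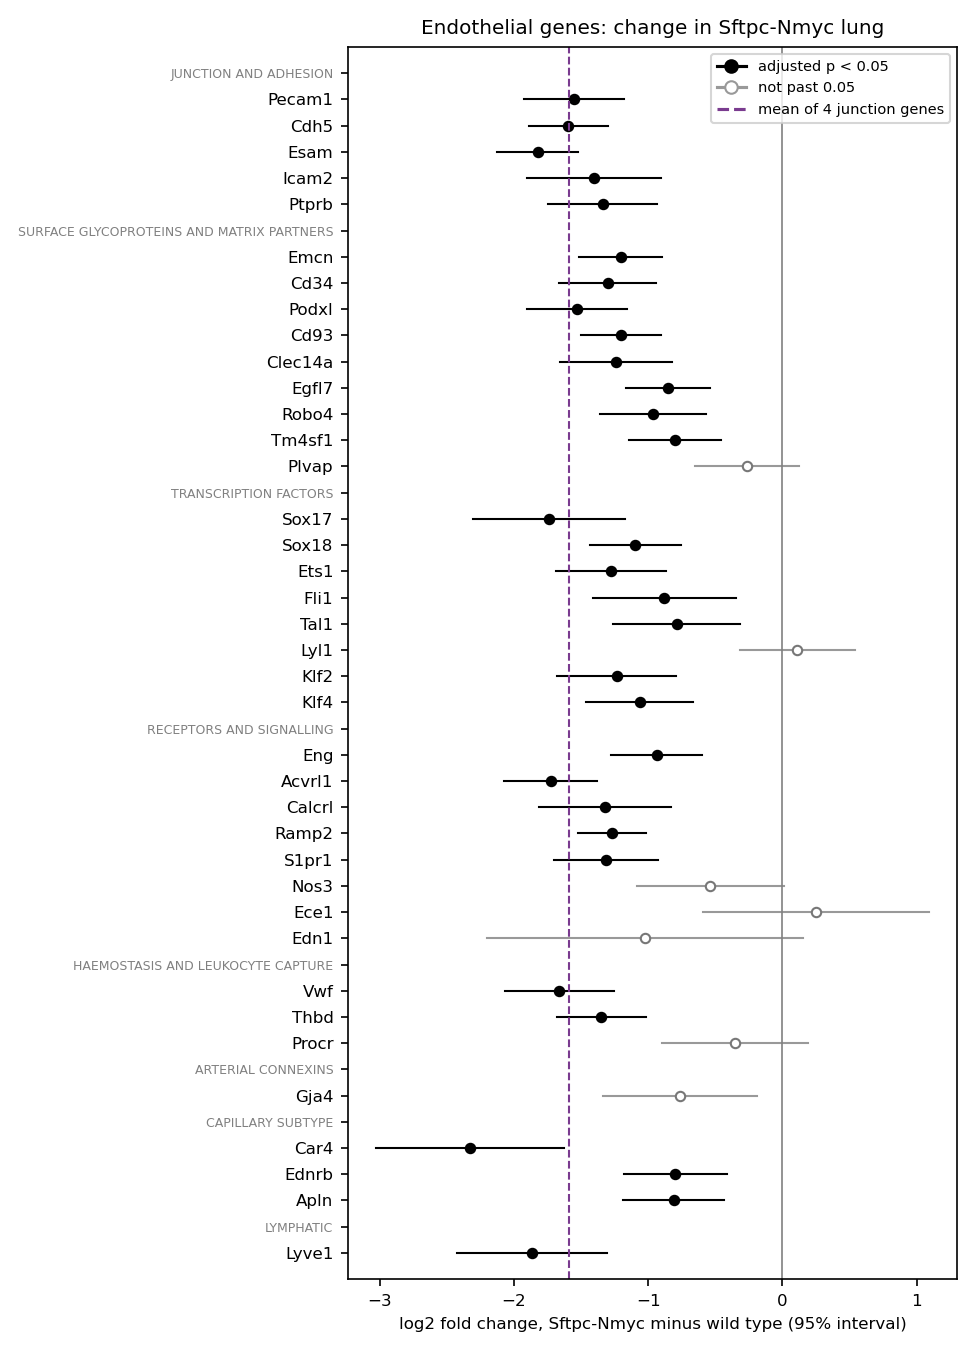
Log2 fold change of each of the 38 tested members, Sftpc-Nmyc minus wild type, with its 95% limma interval; filled points passed an adjusted p of 0.05. The dashed line at -1.59 is the mean change of Pecam1, Cdh5, Esam and Icam2; 31 points are filled, all left of 0, and Plvap, Lyl1, Ece1 and Procr lie well to the right of the dashed line.

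The tested vessel subtype members had log2 fold changes between -2.33 and -0.77, and 4 of 5 fell. Car4, a carbonic anhydrase on the surface of aerocytes, read 42.8 and 30.9 in Sftpc-Nmyc lung, against 157.2 and 281.5 in wild-type lung. At -2.33 ± 0.30 (5.03-fold lower, limma adjusted p = 0.0016) it fell most of the 38 tested members. A second Car4 probe set read 25.3 and 14.3 in Sftpc-Nmyc lung and 94.3 and 137.8 in wild-type lung (-2.25). Both Sftpc-Nmyc levels lay below 73.4. Ednrb and Apln are the other aerocyte members. Ednrb, an endothelin receptor, read 123.3 and 106.5 in Sftpc-Nmyc lung, against 206 and 202.1 in wild-type lung (-0.80 ± 0.17, limma adjusted p = 0.0096). Apln, the peptide apelin, whose gene is X-linked, read 200.3 and 193.5 in Sftpc-Nmyc lung, against 312.6 and 389.8 in wild-type lung (-0.81 ± 0.16, limma adjusted p = 0.0085). The groups did not overlap for either gene. The call of Ednrb was lost with wild-type replicate 1 left out (limma adjusted p = 0.051) and with wild-type replicate 2 left out (0.057), and that of Apln with wild-type replicate 2 left out (0.066), which left 1 of these 3 members called without wild-type replicate 2.

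Lyve1, the hyaluronan receptor of lymphatics, which some macrophages also carry, read 203.9 and 124.5 in Sftpc-Nmyc lung, against 515.2 and 674.8 in wild-type lung (-1.86 ± 0.24, limma adjusted p = 0.0015). A second Lyve1 probe set read 208.6 and 101.5 in Sftpc-Nmyc lung and 323.8 and 508.3 in wild-type lung (-1.44). It was not called in the fit over all probe sets described below (limma adjusted p = 0.073). Gja4, the arterial gap junction protein connexin 37, read 145.2 and 146.6 in Sftpc-Nmyc lung, against 192.4 and 334.2 in wild-type lung. It did not pass at -0.77 ± 0.25 (limma adjusted p = 0.0504), although the groups did not overlap, and it was called without wild-type replicate 1 (-1.17, limma adjusted p = 0.014), with a 50th percentile filter (0.041), without quantile normalization (0.045) and with an offset of 20 (0.049). Gja5, connexin 40, was at the bottom of the array's range, with 2.2 and 1.9 in Sftpc-Nmyc lung and 10 and 5.9 in wild-type lung.

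A separate limma fit ran over all 20380 probe sets with 1 symbol, with no filter, and called 6.16% of them lower and 6.79% higher. Of the 31 members that fell, 29 were also called lower by their representing probe set in this fit, and Fli1 (limma adjusted p = 0.0763) and Tal1 (0.0719) were not. Of the 21 further member probe sets 11 were lower, none was higher and 10 were not called, and 20 of 21 had a negative log2 fold change. No member had probe sets called in opposite directions.

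A second fit asked which members moved by another amount than the general junction genes. On each array the mean log2 value of Pecam1, Cdh5, Esam and Icam2 was subtracted from every gene. That mean was lower by 3.02-fold in Sftpc-Nmyc lung (log2 fold change -1.59). Of the 34 other tested members 17 did not differ from it past the threshold, 16 lay above it and 1 below, by limma at an adjusted p under 0.05. Over all other genes tested, 94.6% lay above it and 0.531% below, and with so many calls the adjusted threshold is close to an unadjusted one.

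Among the members with no call in this fit the differences nearest to 0 were those of Podxl (0.06 ± 0.18), Vwf (-0.07 ± 0.21), Acvrl1 (-0.13 ± 0.18) and Sox17 (-0.15 ± 0.22). Their 95% intervals nevertheless allow differences of up to -0.64 for Sox17 and 0.45 for Podxl. Of the 7 uncalled members 6 lay above the junction level (all but Edn1), with differences of 1.85 ± 0.36 for Ece1, 1.70 ± 0.21 for Lyl1, 1.33 ± 0.21 for Plvap, 1.24 ± 0.27 for Procr, 1.06 ± 0.27 for Nos3 and 0.83 ± 0.23 for Gja4. The other 10 above it were members that fell: Egfl7, Robo4, Tm4sf1, Sox18, Fli1, Tal1, Klf4, Eng, Ednrb and Apln, with differences of 0.50 for Sox18 to 0.81 for Tal1. Fli1 and Sox18 no longer differed without Sftpc-Nmyc replicate 2 (limma adjusted p = 0.088 and 0.083), nor Klf4 without wild-type replicate 2 (0.20). Other members gained a call above it: with the replicate number as a block Cd93 (limma adjusted p = 0.024), Emcn (0.035) and Ramp2 (0.040) did. With Sftpc-Nmyc replicate 2 left out Ets1 (limma adjusted p = 0.0099), Clec14a (0.044), Emcn (0.033), Cd93 (0.042) and Edn1 (0.030) gained one. With wild-type replicate 1 left out Klf2 (limma adjusted p = 0.014), S1pr1 (0.048), Cd93 (0.020) and Ramp2 (0.042) did, and with wild-type replicate 2 left out Edn1 (0.0041). Lyve1 was called below the junction level without Sftpc-Nmyc replicate 1 (-0.67, limma adjusted p = 0.0096). Car4 lay below the junction level by -0.74 ± 0.29 (limma adjusted p = 0.029), a call that ended without Sftpc-Nmyc replicate 2 (-0.44, limma adjusted p = 0.16), without wild-type replicate 2 (-0.40, 0.28), with an offset of 20 (-0.45, 0.10) and with no filter on dim genes (0.060).

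Genes of endothelium outside the member list were lower as well. A list of further endothelial genes had 37 tested, of which 26 fell and 0 rose (0 at an unadjusted p under 0.05 too), with a median log2 fold change of -1.03. Tmem100, Plat and Dysf of this list passed the filter on dim genes only through the wild-type arrays, so their differences could only be negative. Dysf is among the 26 that fell, and Tmem100 and Plat were not called. Aqp1, the water channel of capillaries, which mesothelium and red cells also carry, read 378.9 and 333.2 in Sftpc-Nmyc lung, against 2077.8 and 2489.5 in wild-type lung (-2.69 ± 0.14, limma adjusted p = 6.9e-05). Epas1, the hypoxia-inducible factor HIF2A, fell by 2.20 ± 0.18 and Tie1, a receptor kinase of endothelium, fell by 1.77 ± 0.15. Fabp4, a fatty acid binding protein, went against the list without passing (0.41 ± 0.23). Aqp1, Epas1 and Slco2a1, a prostaglandin transporter named here after its values were seen, lay below the junction level, by -1.09 ± 0.17, -0.61 ± 0.21 and -0.74 ± 0.21. With single arrays left out the adjusted p reached 0.0903 for Epas1, 0.0609 for Slco2a1 and 0.0015 for Aqp1 (limma), so that the calls of Epas1 (without wild-type replicate 2 or Sftpc-Nmyc replicate 2) and Slco2a1 (without wild-type replicate 2) ended.

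By vessel subtype, aerocyte markers outside the member list fell in 4 of 4 (median -1.17), general capillary markers in 3 of 4 (-0.76), arterial markers in 7 of 8 (-0.76), lymphatic markers in 4 of 5 (-0.88) and venous markers in 2 of 6 (-0.34). None was higher in any list, also at an unadjusted p under 0.05. Nrp1, a semaphorin and VEGF co-receptor on both the aerocyte and arterial lists, fell by 1.48 ± 0.15, Kdr, the main VEGF receptor, fell by 1.16 ± 0.13 and Tbx2, a T-box factor, fell by 1.18 ± 0.14. The lists are not separate: Nrp1, Kdr, Flt4, Nrp2 and Stab2 also stand among the further endothelial genes counted above. Aplnr is on both the general capillary and venous lists. Kit, which fell by 0.75 ± 0.16, counts on both the general capillary list and the haematopoietic list below. Cxcl12, a chemokine of capillaries and arteries that stroma also makes, fell by 1.42 ± 0.14 and Efnb2, the arterial ephrin, fell by 1.58 ± 0.22. Pdpn, podoplanin of lymphatics and of alveolar type I cells, fell by 2.14 ± 0.30. The lymphatic count includes Thy1, which passed the filter on dim genes only through the wild-type arrays, so its difference could only be negative. Prox1, Foxc2 and Maf of the lymphatic list were too dim to be tested.

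Venous markers were the list with the fewest calls, although Emcn, a member of capillaries and veins that is not on it, fell by 1.21 ± 0.13. The 4 not called, named after their values were seen, were Nr2f2 (-0.20 ± 0.16), Ephb4 (-0.37 ± 0.17), Nrp2 (-0.30 ± 0.24) and Slc6a2 (-0.11 ± 0.40). Nr2f2, the COUP-TFII factor of veins that lung mesenchyme also makes, read 347.7 and 413.3 in Sftpc-Nmyc lung, against 399.9 and 474.2 in wild-type lung. All 6 tested venous genes lay above the junction level (median difference 1.26). So did 94.6% of all genes tested outside the junction genes, and the median difference over all genes tested was 1.57. Whether the lists differ from each other was not tested. Counts of short lists moved with single arrays. Without wild-type replicate 2 the arterial count was 2 and the lymphatic count 2, and without Sftpc-Nmyc replicates 1 and 2 in turn the arterial count was 3 and 4. Slc6a2 of the venous list also passed the filter on dim genes only through the wild-type arrays. The venous count was 0 without wild-type replicate 1 and 1 without each other array.

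**Figure D3:**
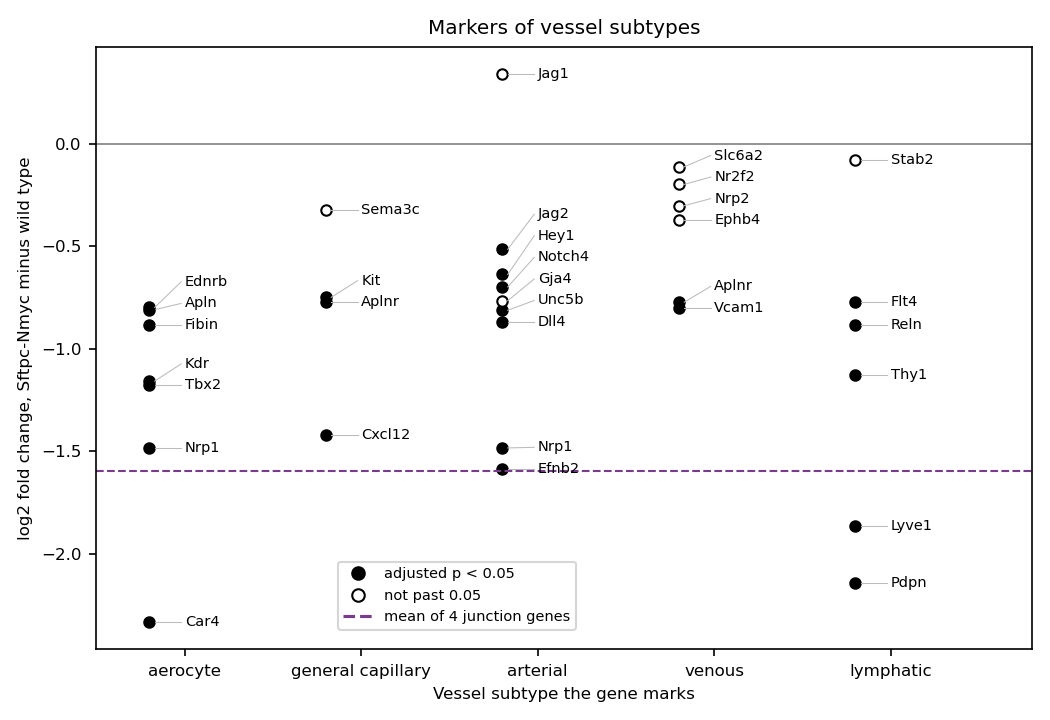
Log2 fold changes, Sftpc-Nmyc minus wild type, of tested markers of 5 vessel subtypes, with the members Car4, Ednrb, Apln, Gja4 and Lyve1. Filled points passed an adjusted p of 0.05 and the dashed line is the mean of the 4 junction genes at -1.59. The members Emcn, of capillaries and veins (-1.21), and Sox17, enriched in arteries (-1.74), are not shown. Car4 is lowest at -2.33, and 4 of 6 venous markers are open points between -0.37 and -0.11.

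Markers of other cell types moved with the group as well, and their part in the endothelial results was not tested. Fibroblast markers were lower in 8 of 10 (median -0.92), pericyte and smooth muscle markers in 8 of 12 (-0.73), mesothelial in 2 of 3 (-1.81), macrophage and monocyte in 6 of 10 (-1.01), platelet in 2 of 6 (-0.36), haematopoietic in 3 of 6 (-0.65) and erythroid in 2 of 2 (-2.23). Runx1 of the haematopoietic list, named after its values were seen, was higher at an unadjusted p only (0.51 ± 0.21, limma adjusted p = 0.11). Of the 6 tested cardiac muscle markers, Actc1, Myl7 and Myl4 were lower. The other 3, Tnnt2, Myh6 and Ryr2, passed the filter on dim genes only through the wild-type arrays, so their differences could only be negative. Among the lists of other cell types 1 more gene, the platelet gene Ppbp, passed only so. None of the 38 tested members did, nor any fibroblast, mural, mesothelial, macrophage, haematopoietic, erythroid or epithelial marker. Pan-epithelial markers were the exception, with 6 of 10 higher and none lower (0.64). Summed over 7 platelet markers the signal was 494.4 to 565.7 in Sftpc-Nmyc lung, against 817.3 to 1012.1 in wild-type lung, and over 7 haematopoietic markers 488.5 to 526.4 in Sftpc-Nmyc lung, against 777.5 to 831.9 in wild-type lung. Over 11 macrophage and monocyte markers it was 1373.5 to 1391.2 in Sftpc-Nmyc lung, against 4784.9 to 6171.1 in wild-type lung, and over 5 erythroid markers 443.4 to 453.3 in Sftpc-Nmyc lung, against 2204.8 to 2368.5 in wild-type lung. Lyz2, a lysozyme that alveolar type II cells also make, was most of the macrophage sum in wild-type lung and of the difference, with 528.3 and 530.7 in Sftpc-Nmyc lung, against 3047.4 and 4359.6 in wild-type lung. The other 10 summed to 845.2 to 860.5 in Sftpc-Nmyc lung, against 1737.5 to 1811.5 in wild-type lung. Alas2, whose gene is X-linked, was most of the erythroid sum, with 367.4 and 367.9 in Sftpc-Nmyc lung, against 2136.8 and 1832.4 in wild-type lung. The other 4 erythroid markers summed to 76 to 85.4 in Sftpc-Nmyc lung, against 231.7 to 372.4 in wild-type lung. Of these, Hba-a1, Epb42 and Klf1 were too dim to be tested. These blood lineages carry several members, Pecam1, Vwf, Tal1 and Lyve1 among them. Fibroblast markers summed to 15474.1 to 16072.6 in Sftpc-Nmyc lung, against 25715.9 to 27289.6 in wild-type lung, and pericyte and smooth muscle markers to 2972.1 to 3533.5 in Sftpc-Nmyc lung, against 5549.3 to 5674.2 in wild-type lung. Mesothelial markers summed to 1359.3 to 1604.9 in Sftpc-Nmyc lung, against 2303.8 to 2873.8 in wild-type lung, and cardiac muscle markers to 316.8 to 569.7 in Sftpc-Nmyc lung, against 1744.4 to 2806.4 in wild-type lung. Krt19, a keratin also on the pan-epithelial list, made up most of the mesothelial sum in Sftpc-Nmyc lung, and without it the sum was 262.5 to 399.6 in Sftpc-Nmyc lung, against 1067.9 to 1502.3 in wild-type lung. Pan-epithelial markers went the other way, with 8435 to 8534.6 in Sftpc-Nmyc lung, against 5399.9 to 5939.5 in wild-type lung. The sum over the 42 measured members was 9129.6 and 9167.2 in Sftpc-Nmyc lung, against 20434.1 and 21606.7 in wild-type lung. No marker on these lists was at 0. The platelet count was 0 without wild-type replicate 1, the haematopoietic count 0 without wild-type replicate 2, and the pericyte and smooth muscle count 4 without wild-type replicate 2 and 5 without Sftpc-Nmyc replicate 1.

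**Figure D4:**
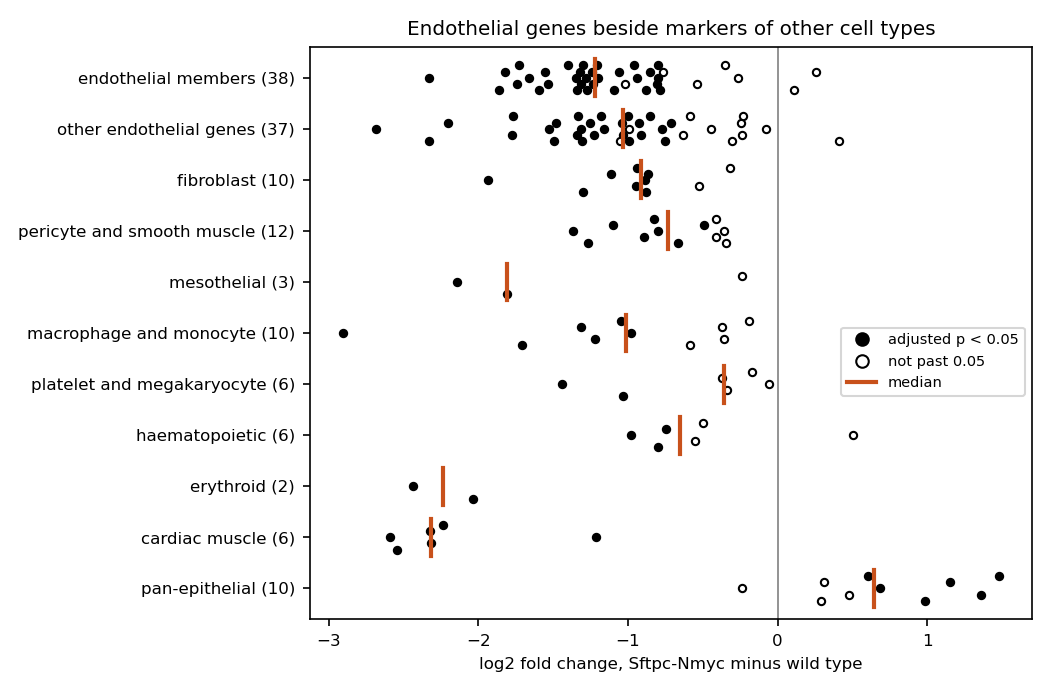
Log2 fold changes, Sftpc-Nmyc minus wild type, of the 38 tested members and of markers of other cell types (number tested in brackets); filled points passed an adjusted p of 0.05 and bars are medians. Every list but the pan-epithelial one has its median below 0, with the members at -1.22; 3 of the 6 cardiac muscle points passed the filter on dim genes only through the wild-type arrays.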

How the data were processed

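The members and lists were chosen with earlier results of these data known. The authors deposited linear intensities, 1 per probe set and array, of biotin-labelled total RNA on an Affymetrix array, per the labels' protocols. Their software and background correction were not given in the sources used here. All 4 arrays have the same mean (150.05) with the highest and lowest 2% left out. Values under 1 were set to 1, 5 was added, log2 taken, and arrays quantile normalized over non-control probe sets. Of 22690 probe sets, 20380 had 1 symbol in the platform annotation, 691 several, 1555 none, and 64 were controls. Each gene took its probe set with the highest mean, and genes under the 30th percentile were left out. Group was the only term in limma 3.58.1 (R 4.3.3; lmFit, eBayes with a trend), with p-values adjusted over 8675 genes. The code was tested on simulated data. Members named with all 4 values are up to 3 with the largest statistics of each role, all subtype members and those against the median; Plvap, Edn1, Erg, Selp and Sele were added after their values were seen. Deviations of same-numbered replicates correlated at -0.04, so the arrays were not treated as paired. Alternatives were the normalization, offset, filter, probe set rule, variance trend, replicate block and each array left out.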

Additional observations from a re-analysis of the deposited data

How the results depend on the processing

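With 2 arrays per group, calls near the threshold turn on single arrays. Across the other normalization, offsets, filters, probe set rule, variance model and replicate block, 29 to 32 members were lower and 0 higher. No filter on dim genes moved the member median to -1.15 (42 members tested) and the count below the junction level to 0, as did an offset of 20. Leaving out 1 array gave 27 to 30 members lower, 0 to 1 higher (Ece1, without wild-type replicate 1), medians of -1.22 to -1.14, 0 to 2 below the junction level and 16 to 20 above it. The number of genes called over the whole array was then 1379 to 1906, against 2636, with fewer samples in each fit. Ece1 was -0.030 with the mean of probe sets and ranged from -0.41 to 0.93 without single arrays, and Lyl1 from -0.031 to 0.25. The replicate block gave 2218 genes called and 31 members lower. The cause of these changes was not tested. Signals below 73.4 on both Sftpc-Nmyc arrays limit the fold changes of 6 tested members, among them Vwf and Car4.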
